A study of Mus musculus with 6 samples.

Results

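The Mediator complex and its kinase module were read as the 33 genes whose symbols name a Mediator subunit, cyclin C or the kinases Cdk8 and Cdk19, out of 54532 genes in the table. All 33 had a row, and 32 passed the filter on low counts and were tested. Mediator is the large protein assembly that carries signals from transcription factors bound at enhancers and promoters to RNA polymerase II. Its head and middle touch the polymerase, the subunit Med14 runs through the complex as its backbone, and the tail receives many activators. A separate kinase module, made of Med12, Med13, cyclin C and Cdk8 or their vertebrate relatives, binds reversibly and keeps the polymerase off while it is bound. In fat cells the complex is known as a partner of PPARG, the nuclear receptor of adipocyte identity, which contacts it through Med1.

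Bulk RNA of the inguinal fat pad, a white adipose depot under the skin of the mouse, was sequenced. The 3 controls came from Cdo1flox/flox mice, named WT in the genotype field, and the other 3 samples from Cdo1AKO mice, in which Cdo1, the gene of cysteine dioxygenase 1, was deleted in adipose tissue. Mice of both groups received a high-fat diet from 8 weeks of age for 15 weeks. The sources used here do not give the Cre line that made the deletion or the sex. They do not say whether each sample is a different animal either, and every p-value therefore rests on the spread of these samples, which may be technical. Values of 3 libraries are listed in the order of their replicate numbers, controls first, and Cdo1AKO samples are also called knockouts. The comparison asks how the transcriptome of the depot differs without Cdo1, here for the machinery that reads out its transcription factors.

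Libraries held 16275184 to 19205804 counts. Cdo1 itself, in CPM (the count per library size scaled with TMM factors), had 887, 432 and 631 CPM in the controls and 123, 392 and 134 CPM in the knockouts. Cdo1AKO 2 thus held far more Cdo1 mRNA than the other knockouts and lay just under control 2. Adipocyte markers were abundant in all 6 libraries, with Adipoq between 1492 and 3077 CPM. Control 1 and Cdo1AKO 2 stood apart: the median CPM of 13 B cell and lymph node stroma markers was 0.123 and 0.450 there, against 57.6 to 122 in the other 4 libraries. Results are therefore also given within those 4 libraries, 2 in each group. In bulk tissue, fewer cells of a type and less RNA per cell cannot be told apart.

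No Mediator gene passed the test, and the amount of Mediator mRNA was close to equal in the groups. Summed over the 33 genes it came to 1166, 1189 and 1237 CPM in the controls and to 1215, 1130 and 1205 CPM in the knockouts. Of the 32 tested members, 0 passed edgeR's quasi-likelihood test at an adjusted p under 0.05, against 0% of all 16623 tested genes, so the count tells nothing about the members. Even Cdo1, the deleted gene, did not pass it, with a log2 fold change of -1.59 ± 0.53 (SE) and an edgeR adjusted p of 0.416. At an unadjusted p under 0.05 there were 2 members, Med11 higher and Med12l lower, or 6.25% of those tested, against 10.4% of all tested genes (4.66% higher, 5.71% lower). DESeq2 called 0 members and 1.55% of 17728 genes, and at an unadjusted p 1 member, Med11, against 6.65% of 29966 genes. It was run without the filter on low counts, so its shares cover other genes than those of edgeR and are not comparable. limma-voom called 0 members and 0% of the 16623 genes, and at an unadjusted p the same 2 members as edgeR, against 9.91%.

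Fold changes of the members were small. Their median was 0.018 on the log2 scale, with 16 above 0 (56.0% of all tested genes were) and 16 below, beside a median of 0.058 over all tested genes. The median size of a log2 fold change, whatever its sign, was 0.13 for the members and 0.28 for all tested genes. Of the members, 31 lay within 0.5 of 0 on the log2 scale, or 96.9%, against 71.3% of all tested genes. The members were also measured more precisely, with a median standard error of 0.18 against 0.29 for all tested genes. The part of this precision in both comparisons was not tested, so they do not show that Mediator genes are unusually steady. The 95% intervals of the fold changes ran from 0.549-fold to 2.10-fold over all members, and 31 of the 32 lay inside a 2-fold change in either direction. Only 14 lay inside a 1.5-fold change.

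**Figure D1:**
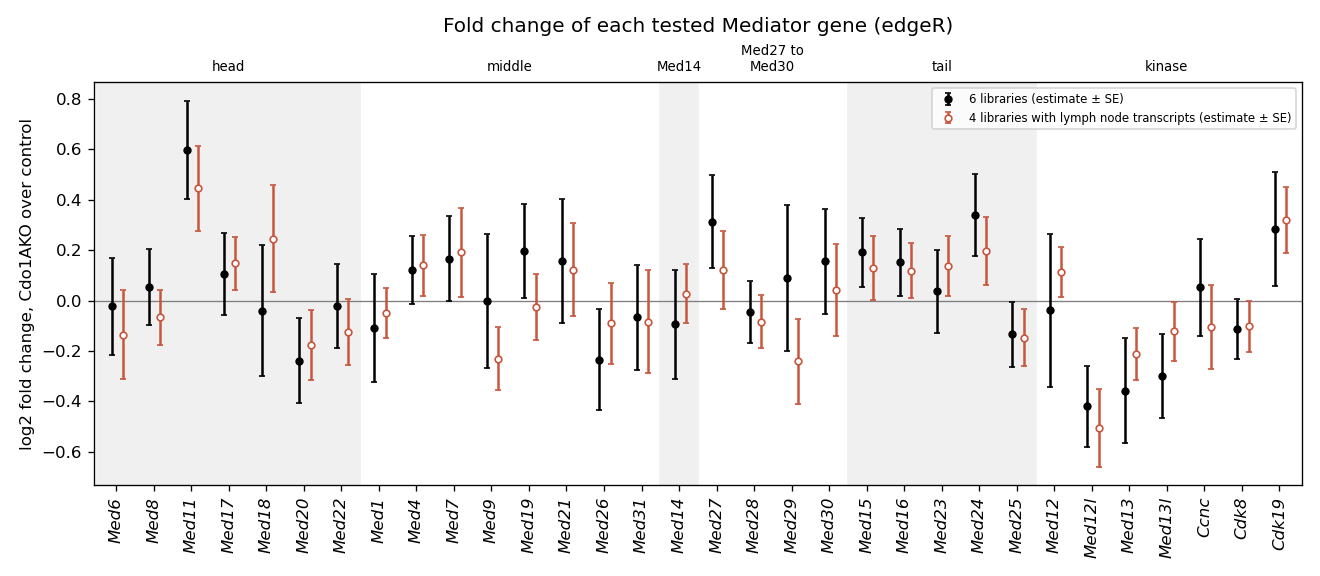
Log2 fold change of Cdo1AKO over control with its standard error for the 32 tested Mediator genes, grouped by module, from all 6 libraries (filled) and from the 4 libraries with lymph node transcripts (open). Estimates from 6 libraries lie between -0.42 (Med12l) and 0.60 (Med11).

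The 4 libraries with lymph node transcripts gave the same count with a far larger background. Within them edgeR called 2617 genes, 15.3% of those tested, and 0 of the 32 members. A fit of all 6 libraries with a term for these transcripts called 4.13% of all genes and 0 members. At an unadjusted p under 0.05 that fit held 3 members, Med11, Med12l and Med13, or 9.38%, against 22.9% of all genes. Cdo1 itself passed with this term (edgeR adjusted p = 0.0256) and within the 4 libraries (0.00345). Cdo1AKO 1 and 3, both among the 4, were the most alike of the 6 pairs within a group, with a chi-square per gene of 5.63 against 23.0 for controls 2 and 3. Pairs across the groups were not compared. Within the 4 libraries the groups still differed in cell markers. All 11 T cell markers were called higher in Cdo1AKO there, while 0 of the 13 B cell and lymph node stroma markers were called. The part of such differences in the 2617 calls was not tested.

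The promoters of Med11 and Med12l are shown because these genes had the largest differences in each direction; the sequences are the 250 bases before the RefSeq start site, on the plus strand of GRCm38.p6. Med11 lies at chr11:70451668-70451917 and Med12l at chr3:59006728-59006977, where the RefSeq start lies 1153 bases inside the start listed in the table. Capitals mark a match to the NRF1 site in Med11 and to the GC box GGGCGG, here on the other strand, in Med12l.
Med11: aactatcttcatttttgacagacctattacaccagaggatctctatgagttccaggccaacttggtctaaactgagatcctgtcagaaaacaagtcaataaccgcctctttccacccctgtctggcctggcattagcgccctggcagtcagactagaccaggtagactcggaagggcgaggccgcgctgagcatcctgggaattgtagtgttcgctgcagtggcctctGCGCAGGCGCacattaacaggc
Med12l: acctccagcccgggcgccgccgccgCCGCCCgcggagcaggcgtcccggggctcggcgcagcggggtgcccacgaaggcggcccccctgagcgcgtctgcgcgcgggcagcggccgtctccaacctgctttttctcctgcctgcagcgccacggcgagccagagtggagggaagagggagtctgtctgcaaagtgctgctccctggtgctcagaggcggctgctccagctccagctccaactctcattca

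RefSeq windows of 300 bases were at hand for 28 of the 33 members, 32 windows in all. Both strands were searched. The GC box was in 62.5% of the member windows and 35.7% of all 32851 windows, the ETS core CCGGAAG in 28.1% and 8.86%, and the NRF1 site in 12.5% and 4.60%. CCAAT was in 37.5% and 37.4%, TATAAA in 9.38% and 13.6%, the E-box CACGTG in 12.5% and 7.15%, and the perfect direct repeat of the kind PPARG binds in 0% and 0.040%. The NRF1 site was added after the Med11 sequence had been read. Neither printed window held any of these motifs other than the one in capitals. The median GC content was 57.8% in the member windows and 52.7% in all windows, and its part in these shares was not tested. Such matches describe these letters and are not binding sites.

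The head module is the part that seats the polymerase and the general transcription factors. Its 7 members had a median log2 fold change of -0.022, with 3 above 0 and 4 below; the median was above 0 (0.076) on total counts without scaling factors. Med11 (ENSMUSG00000018923, mm10 chr11:70451919-70453727), which pairs with Med22 in the head, had 11.2, 16.3 and 13.0 CPM in the controls and 18.3, 21.4 and 21.7 CPM in the knockouts. Every Cdo1AKO library lay above every control. The log2 fold change was 0.60 ± 0.19 (SE), or 20.5 ± 1.84 CPM against 13.5 ± 2.55 CPM (SD, n = 3), with an edgeR adjusted p of 0.403. It stayed between 0.44 and 0.75 under every alternative that was run and passed none (smallest adjusted p 0.106, with the lymph node term). In the authors' deposited table Med11 had a log2 fold change of 0.60 and an adjusted p of 0.285, the smallest among the members there.

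Med22, the partner of Med11, did not follow it. It had 56.1, 47.5 and 58.6 CPM in the controls and 51.3, 62.1 and 46.4 CPM in the knockouts, so the groups overlapped fully. Its log2 fold change was -0.022 ± 0.17 (SE). Med18 and Med20, which form a pair on the head's moving arm with Med8, had -0.040 ± 0.26 and -0.24 ± 0.17. Med8 had 0.055 ± 0.15, Med6 -0.023 ± 0.19 and Med17, the scaffold of the head, 0.11 ± 0.16. None of these 5 separated the groups.

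The middle module joins the head to the tail and carries the hinge formed by Med7 and Med21. Of its 9 members 8 were tested, with a median log2 fold change of 0.060 and 4 above and 4 below 0. Med7 had 9.20, 9.09 and 8.58 CPM in the controls and 9.40, 9.91 and 10.9 CPM in the knockouts. The groups did not overlap, but the gap between control 1 and Cdo1AKO 1 was small, and the log2 fold change was 0.17 ± 0.17 (SE). Its hinge partner Med21 ranged from 14.7 to 20.3 CPM in controls and from 13.9 to 23.3 CPM in Cdo1AKO.

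Med1 is the subunit through which PPARG and other nuclear receptors contact the complex. It had 49.1, 61.4 and 65.0 CPM in the controls and 60.7, 40.3 and 61.9 CPM in the knockouts. The lowest library was Cdo1AKO 2 and the next lowest control 1, the same 2 libraries that lacked lymph node transcripts. The log2 fold change of -0.11 ± 0.22 (SE), edgeR adjusted p = 0.879, was -0.049 ± 0.098 within the other 4 libraries and 0.067 without Cdo1AKO 2 alone. Pparg itself had 254, 114 and 171 CPM in the controls and 118, 163 and 116 CPM in the knockouts, a log2 fold change of -0.44 ± 0.32 (SE), which did not pass (adjusted p = 0.669).

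Med26, which hands elongation factors to the polymerase, lay between 10.5 and 10.8 CPM in controls and had 10.05, 7.21 and 9.88 CPM in the knockouts. All 3 Cdo1AKO libraries were below the controls, and Cdo1AKO 2 lay farthest. The log2 fold change of -0.24 ± 0.20 (SE) was -0.095 without Cdo1AKO 2. Med9 had the widest swing of the module, from 33.7 to 43.6 CPM in controls and from 28.7 to 54.0 CPM in Cdo1AKO, with Cdo1AKO 2 the highest library and control 1 the next. Med4, Med19 and Med31 had log2 fold changes of 0.12 ± 0.13, 0.20 ± 0.19 and -0.067 ± 0.21 (SE).

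Med10, which forms the hook of the middle with Med14 and Med19, was listed at 0 counts in each of the 6 libraries. It was the only member with no count. In GENCODE release M21, whose exon lengths and coordinates equal those of the table for all 33 members, Med10 has 4491 exon bases (mm10 chr13:69802395-69816104, plus strand), and 4168 of them, 92.8%, are also exon of Gm26819, a long non-coding gene on the other strand. Gm26819 had 15 to 29 counts per library. No source used here gives the strand setting of the counting, and whether reads of Med10 were set aside for this overlap was not tested. The 0 therefore says nothing of the level of Med10.

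Overlap of this size was found for no other member. Exon bases shared with another gene made up 28.4% of Med20, 26.3% of Med31, 21.2% of Med7 and 17.3% of Med12l, and less of every other member; 15 members shared none, Med11 among them. For Med12l 1948 bases lie under Igsf10 on the other strand. Igsf10 had 2.58 to 4.71 CPM in controls and 4.999 to 9.26 CPM in Cdo1AKO, a log2 fold change of 0.79 ± 0.36 (SE) that did not pass, against the direction of Med12l. Its part in the value of Med12l was not tested.

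Med14, the backbone, had 40.3, 43.0 and 48.5 CPM in the controls and 44.2, 29.8 and 49.5 CPM in the knockouts. Cdo1AKO 2 was far below the other libraries, and Cdo1AKO 3 was the highest. The log2 fold change of -0.095 ± 0.22 (SE) was 0.091 without Cdo1AKO 2. Med27 to Med30, subunits of animals that sources place in the head or the tail, had a median of 0.12, which was -0.045 without Cdo1AKO 2 and -0.021 within the 4 libraries with lymph node transcripts. Med27 had 9.69, 10.97 and 11.8 CPM in the controls and 12.3, 15.5 and 12.6 CPM in the knockouts, with no overlap and a log2 fold change of 0.31 ± 0.18 (SE), adjusted p = 0.608 by edgeR. In the 4 libraries that held lymph node transcripts the difference was 0.12 ± 0.16. Med28, between 49.5 and 57.0 CPM in every library, was among the steadiest members, with a log2 fold change of -0.044 ± 0.12. Med29 and Med30 had 0.090 ± 0.29 and 0.16 ± 0.21.

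The tail module, where activators dock, had a median log2 fold change of 0.15 over its 5 members, with 4 above 0; without control 2 the median was 0.091. Med24 (ENSMUSG00000017210, mm10 chr11:98704591-98729435), which forms a tail subgroup with Med16 and Med23, had 34.7, 42.1 and 41.1 CPM in the controls and 53.6, 53.6 and 41.9 CPM in the knockouts. Cdo1AKO 1 and 2 lay above every control, while Cdo1AKO 3 fell just below control 2. The means were 49.7 ± 6.73 CPM against 39.3 ± 4.01 CPM (SD, n = 3), a log2 fold change of 0.34 ± 0.16 (SE) with an edgeR adjusted p of 0.538. The 95% interval ran from 0.966-fold to 1.66-fold. The value stayed above 0 under all 16 alternatives, between 0.20 and 0.45, and passed none.

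Other tail members had smaller differences. Med16 had 0.15 ± 0.13 and Med23, the subunit that answers the transcription factor ELK1, 0.037 ± 0.16 (log2 fold change, SE). Med15, which binds the lipid regulators of the SREBP family, had 64.1, 62.9 and 72.2 CPM in the controls and 80.4, 79.1 and 68.0 CPM in the knockouts, with Cdo1AKO 3 inside the control range. Med25 had 94.9, 88.9 and 90.5 CPM against 87.3, 87.4 and 75.2 CPM. Its groups did not overlap, with Cdo1AKO lower, yet the log2 fold change was only -0.13 ± 0.13 (SE). With Med14 and Med27 to Med30 counted in, the tail median was 0.12, and the head median with Med27 to Med30 was 0.055.

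The kinase module had the lowest median of the groups with more than 1 member, -0.11 over 7 members, with 5 below 0. That median was -0.22 without Cdo1AKO 1, -0.085 without Cdo1AKO 2, -0.17 without Cdo1AKO 3 and -0.028 on total counts. Med12l, the vertebrate relative of Med12 (ENSMUSG00000056476, mm10 chr3:59005825-59318682), had 14.0, 14.1 and 14.2 CPM in the controls and 10.3, 11.6 and 9.66 CPM in the knockouts. The controls were nearly equal and every Cdo1AKO library was lower, at 10.6 ± 1.01 CPM against 14.1 ± 0.110 CPM (SD, n = 3). The log2 fold change was -0.42 ± 0.16 (SE), edgeR adjusted p = 0.456, and stayed between -0.51 and -0.35 under all 16 alternatives without passing any (smallest adjusted p 0.0679).

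Med13, which ties the kinase module to the core, had 89.2, 95.2 and 99.2 CPM in the controls and 80.5, 53.1 and 87.8 CPM in the knockouts. The groups did not overlap, though Cdo1AKO 3 was only slightly below control 1. Its log2 fold change of -0.36 ± 0.21 (SE), adjusted p = 0.608 by edgeR, rested in part on Cdo1AKO 2 and was -0.17 without it. Its relative Med13l had 98.2, 76.6 and 91.5 CPM against 78.2, 61.4 and 76.6 CPM, and here Cdo1AKO 1 and 3 lay at or just above control 2. Its log2 fold change was -0.30 ± 0.17 (SE).

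Med12, which switches the kinase on through cyclin C, had the largest spread of the module. It had 88.6, 117 and 113 CPM in the controls and 127, 60.6 and 122 CPM in the knockouts. Cdo1AKO 2 lay lowest and control 1 next, and the log2 fold change was -0.039 ± 0.30 (SE), 0.23 without Cdo1AKO 2 and 0.082 on total counts. Cyclin C, encoded by Ccnc, had 0.052 ± 0.19 and overlapped fully.

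The kinase of the module is either Cdk8 or Cdk19. Cdk8 was steady, at 46.0, 49.4 and 46.5 CPM in the controls and 43.6, 41.6 and 46.1 CPM in the knockouts, and Cdk19 was not, at 30.3, 44.8 and 35.5 CPM against 50.6, 34.2 and 50.1 CPM. Cdk19 was highest in Cdo1AKO 1 and 3 and had a log2 fold change of 0.28 ± 0.23 (SE), against -0.11 ± 0.12 for Cdk8. Within the 4 libraries with lymph node transcripts Cdk19 had 0.32 ± 0.13, and it did not pass there either (edgeR adjusted p = 0.143).

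Per kilobase of listed length, the ratio of Cdk8 to Cdk19 was 0.902, 0.656 and 0.778 in the controls and 0.513, 0.723 and 0.546 in the knockouts. Cdk19 was thus the more abundant of the pair in every library on this scale. In CPM, not divided by length, Cdk8 was the higher in every control and in Cdo1AKO 2. The order therefore rests on the listed lengths, 9832 bases for Cdk8 and 5846 for Cdk19. These join all annotated exons and need not be the length of the transcript present. The groups overlapped through Cdo1AKO 2, and an exact two-sided permutation test of the log2 ratio gave p = 0.2 (0.6 adjusted over the 3 pairs; n = 3 against 3, where 0.1 is the smallest p). Med12 exceeded Med12l 8.62- to 20.9-fold per kilobase. That ratio was 10.5, 13.7 and 13.1 in the controls and 20.4, 8.62 and 20.9 in the knockouts, with an exact permutation p of 0.6 for a log2 difference of 0.32. Without Cdo1AKO 2 the difference was 0.74 (exact permutation p = 0.1, the smallest possible), and it was 0.12 without Cdo1AKO 1, 0.10 without Cdo1AKO 3 and 0.20 without control 1. Med13 exceeded Med13l 1.23- to 1.77-fold per kilobase, though not in CPM in control 1 and Cdo1AKO 2. The means of this ratio were 1.54 ± 0.239 in the controls and 1.44 ± 0.201 in the knockouts (SD, n = 3, exact permutation p = 0.7).

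**Figure D2:**
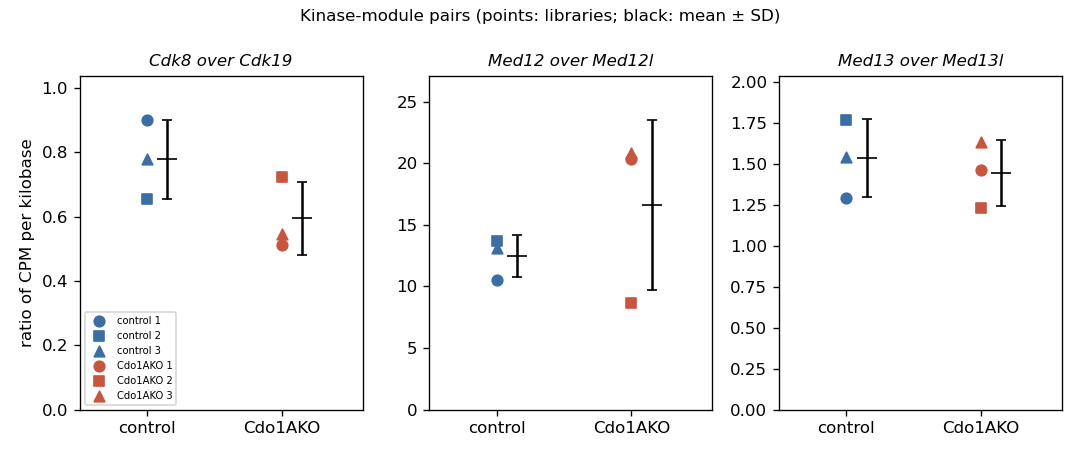
Ratio of CPM per kilobase within the 3 kinase-module pairs in every library (points), with mean ± SD of each group (black). Cdo1AKO 2 lies on the other side of the control mean from Cdo1AKO 1 and 3 for Med12 over Med12l, at 8.62 against 20.4 and 20.9.

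In all 6 libraries, the share of members whose groups did not overlap was near that of all genes. There were 3 higher in Cdo1AKO (Med11, Med27 and Med7) and 4 lower (Med12l, Med13, Med25 and Med26), together 21.9% of the tested members, against 18.6% of all tested genes (8.87% higher, 9.73% lower). Without Cdo1AKO 2 there were 14 such members against 54.7% of all genes, or 43.8% of the members. Without Cdo1AKO 3 there were 12, or 37.5%, against 24.0% of all genes. Med15, Med16 and Med24 of the tail were then added as higher, and Cdk8 and Med20 as lower. Within the 4 libraries with lymph node transcripts there were 16, or 50%, against 62.1% of all genes.

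**Figure D3:**
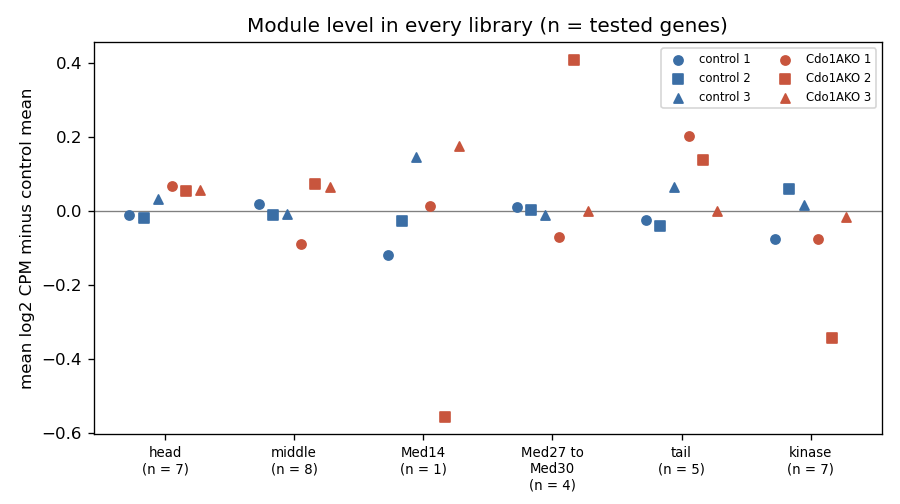
Mean log2 CPM over the tested members of each module in every library, set against the control mean; colour gives the group and shape the replicate number. Cdo1AKO 2 lies at 0.41 for Med27 to Med30, at -0.34 for the kinase module and at -0.56 for Med14, farther from 0 than any other library in these 3.

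Cdo1AKO 2 held the lowest value for 11 members and the highest for 13, together 75% of the 32, against 56.6% of all tested genes. Against Cdo1AKO 1 and 3 the kinase module was lower there, with a median log2 difference of -0.33 and 5 of 7 members below 0. All 4 of Med27 to Med30 were higher, with a median of 0.36. Med12 (-1.03), Med13 (-0.66), Med14 (-0.64) and Med1 (-0.60) were the lowest there, and Med29 (0.86), Med9 (0.81) and Med21 (0.49) the highest, as differences in log2 CPM with 0.5 added.

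These members also differ in length. Across the 32 members the difference of Cdo1AKO 2 from its group had a Spearman correlation of -0.52 with listed gene length, given as a description of 1 library, since all points share its depth and composition. Members longer than 4447 bases (16) had a median of -0.21 and the 16 shorter ones 0.29. Over all 16623 tested genes the correlation was -0.0030, and the medians at the same length were -0.0025 and 0.033. Control 1 against controls 2 and 3 had a correlation of -0.32 across the members, with medians of -0.067 and 0.053, and -0.073 over all tested genes. Length and module went together: every kinase and tail member was among the longer 16. Most tested members of the head, the middle and Med27 to Med30 were among the shorter. The parts of length and module in these differences therefore cannot be told apart, and neither was tested.

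**Figure D4:**
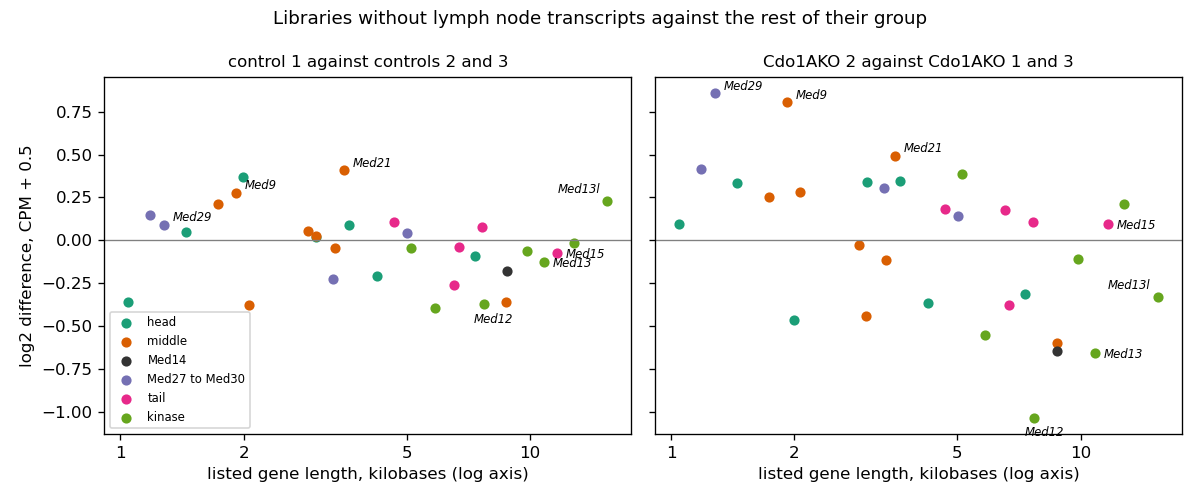
Difference in log2(CPM + 0.5) of the 2 libraries without lymph node transcripts from the mean of the other 2 libraries of their group, against listed gene length (log axis), for the 32 tested members coloured by module. In Cdo1AKO 2 members above 4447 bases have a median of -0.21 and shorter ones 0.29.

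Several cell markers moved with these libraries. Beside the lymph node list, the 11 T cell markers summed to 11.4 CPM in control 1 and 14.5 CPM in Cdo1AKO 2, against 222 to 376 CPM in the other controls and 995 to 1003 CPM in the other Cdo1AKO libraries. The sum of the 9 stromal progenitor markers was highest in Cdo1AKO 2 (4663 CPM against 1443 to 1936 CPM elsewhere). Most of it was Col3a1 (2743 CPM) and Col1a1 (946 CPM). These, Pi16 and Lum were highest in that library, while Pdgfra, Dpp4, Cd55, Ly6a and Dcn were not. The 9 endothelial markers also had their highest sum in Cdo1AKO 2 (2197 CPM against 971 to 1363 CPM), and each except Flt1 was highest there. Mitochondrially encoded mRNAs, a list kept as a sign of RNA quality, summed to 50490 CPM there, above 30621 to 39703 CPM in controls and 21272 and 21988 CPM in Cdo1AKO 1 and 3. Macrophage markers summed to 614 to 823 CPM in controls and 907 to 943 CPM in Cdo1AKO, and the 16 adipocyte markers to 55049 to 83978 and 34052 to 67460 CPM. Their part in the Mediator values was not tested.

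**Figure D5:**
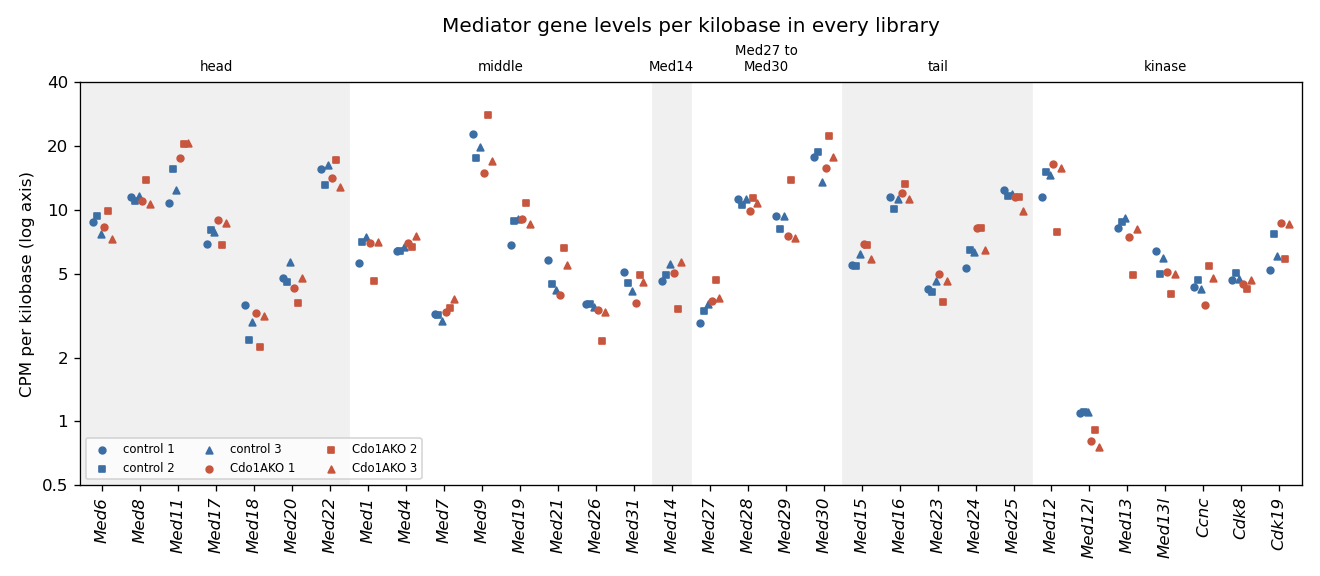
CPM per kilobase of listed gene length (log axis) for the 32 tested Mediator genes in the 6 libraries, grouped by module. Levels run from Med12l, mean 0.966, to Med9, mean 20.05, and for most genes the 2 groups interleave.

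Levels were compared between members per kilobase, as means over the 6 libraries with their SD. The listed length joins all annotated exons of a gene, and the order of the members depends on it. Med9 was the highest at 20.05 ± 4.76 CPM per kilobase, followed by Med30 at 17.6 ± 2.96, Med11 at 16.2 ± 4.11, Med22 at 14.9 ± 1.75 and Med12 at 13.6 ± 3.29. Neighbours in this order differed by less than their spread. Med12l was the lowest of the tested members at 0.966 ± 0.161, clear of the next, Med18 at 2.93 ± 0.494, Med26 at 3.29 ± 0.448 and Med7 at 3.31 ± 0.276. The remaining 23 members lay between 3.67 and 11.6, with Med1 at 6.44 ± 1.10, Med24 at 6.81 ± 1.16 and Med14 at 4.86 ± 0.814.

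Beyond Mediator, the machinery it works with was read in 6 lists, from which the 2 genes with the smallest p are named. In none of these lists did a gene pass the edgeR test. The 13 RNA polymerase II subunits had a median log2 fold change of -0.097, with 5 above 0 and 8 below. Its sign rested on Cdo1AKO 1, without which the median was 0.030. It stayed below 0 without any other single library, at -0.22 without Cdo1AKO 2 and -0.18 without control 3. Without control 2 it was -0.12, without control 1 -0.033 and without Cdo1AKO 3 -0.040. Polr2b, the second largest subunit, had 64.7, 70.5 and 69.9 CPM in the controls and 55.6, 54.3 and 54.0 CPM in the knockouts, a gap between groups that was wider than the spread within them. Its log2 fold change was -0.32 ± 0.12 (SE), adjusted p = 0.431 by edgeR. It passed within the 4 libraries with lymph node transcripts (-0.36 ± 0.096, adjusted p = 0.0461), where 15.3% of all genes passed. Polr2m had -0.34 ± 0.18.

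General transcription factors had a median of 0.083 over 32 tested genes, with 22 above 0. Taf9b had a log2 fold change of -0.44 ± 0.18 (SE) and Gtf2e2, a subunit of TFIIE, 0.25 ± 0.15. Pausing and elongation factors had a median of -0.032 over 25 tested genes (0.058 on total counts). Aff4, the scaffold of the super elongation complex, had 163, 159 and 163 CPM in the controls and 120, 138 and 124 CPM in the knockouts, with no overlap. Its log2 fold change was -0.34 ± 0.13 (SE), adjusted p = 0.438 by edgeR. It passed within the 4 libraries (-0.40 ± 0.10, adjusted p = 0.0390), where 15.3% of all genes passed. Ell, of the same complex, had -0.48 ± 0.19. Cohesin and its loader, which work with Mediator at enhancers, had a median of -0.099 over 10 genes, which was 0.0063 without Cdo1AKO 2, -0.0014 on total counts and -0.020 within the 4 libraries, and between -0.18 and -0.17 without control 1, Cdo1AKO 1 or Cdo1AKO 3. Cohesin genes with the smallest p were Rad21 at -0.33 ± 0.15 and Wapl at -0.25 ± 0.13.

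The nuclear receptors and coactivators that work through Mediator had a median of -0.31 over 25 genes, 19 below 0 and 9 of these at an unadjusted p under 0.05, where 5.71% of all tested genes stood. Ppargc1a, the coactivator of mitochondrial genes that docks on Med1, had 15.9, 13.5 and 17.1 CPM in the controls and 5.60, 6.95 and 5.16 CPM in the knockouts. Ppara, the receptor of fatty acid oxidation, had 12.1, 12.6 and 14.9 CPM and 3.65, 3.28 and 5.32 CPM. In both, every Cdo1AKO library lay far below the controls, Cdo1AKO 2 included. Their log2 fold changes were -1.39 ± 0.21 and -1.69 ± 0.25 (SE), with an edgeR adjusted p of 0.230 for each. Both passed with the lymph node term (adjusted p = 0.0229 and 0.0222) and within the 4 libraries (0.00658 and 0.00745). Adipocyte markers stood lower as well, with a median of -0.49 over 16 genes and 15 below 0. Of these 16, 3 were called lower with the lymph node term, which called 4.13% of all genes in either direction. Within the 4 libraries 14 were called lower, against 15.3% of all genes called in either direction. The part of the adipocyte markers in the values of this list was not tested. The list was chosen with earlier results in view that already showed both genes, and is no independent evidence of its direction.

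Among 10 corepressors, with a median of -0.083 (0.0080 on total counts), Nrip1, which restrains oxidative genes in fat, had 196, 189 and 198 CPM in the controls and 77.5, 154 and 81.4 CPM in the knockouts. The groups did not overlap, and Cdo1AKO 2 lay between the controls and the other Cdo1AKO libraries. Its log2 fold change was -0.90 ± 0.29 (SE), adjusted p = 0.396 by edgeR, and it passed with the lymph node term (-0.98 ± 0.21, adjusted p = 0.0493). Ncor1 had -0.48 ± 0.19. Of the adipocyte lipase genes, Pnpla2 had 5911, 3166 and 4697 CPM in the controls and 2276, 2259 and 1904 CPM in the knockouts, and Lipe ranged from 1981 to 3168 CPM and from 1249 to 2076 CPM. Their log2 fold changes were -1.10 ± 0.35 and -0.71 ± 0.33 (SE), and edgeR did not call them (adjusted p = 0.396 and 0.528). Both passed within the 4 libraries, at -0.92 ± 0.21 (adjusted p = 0.0311) and -0.79 ± 0.17 (0.0251). Whether Mediator genes differ in response from these lists was not tested.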

How the data were processed

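Per the file headers, the authors deposited 1 table that gives each gene's raw count and FPKM in each sample, beside their own fold change on the log2 scale, its p-value and its adjusted p-value. The submitters' processing notes name mm10, DESeq2 1.20.0, featureCounts 1.5.0-p3 and HISAT2 2.0.5 but not what each did. The deposited FPKM was not tested. Groups came from sample titles, and WT columns were matched to controls by genotype and number. Counts were filtered with filterByExpr, scaled with TMM and tested with edgeR 4.0.16 in R 4.3.3 (quasi-likelihood, group only, Benjamini-Hochberg over 16623 genes, threshold 0.05). Alternatives used DESeq2 1.42.0, limma-voom 3.58.1, other scaling and filters, a replicate block, libraries left out, and a lymph node term (marker median above 5 CPM). Ratios per kilobase used the listed length. GENCODE M21 gave exon overlaps and RefSeq the promoters. Members, modules and lists were chosen with earlier results of these data known. The rule named all members, Cdo1, Pparg, Pnpla2, Lipe and 2 genes per list by smallest p. Gm26819 and Igsf10 were added after values were seen, as was the reading by length.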

Additional observations from a re-analysis of the deposited data

How the results depend on the processing

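Of the members, 0 were called under any of the 16 alternatives, 17 of 32 kept their sign in all of them and 15 did not, and the causes of these shifts were not tested. All genes called numbered 274 with DESeq2, 686 with the lymph node term and 2617 within the 4 libraries with lymph node transcripts. Members at an unadjusted p under 0.05 numbered 1 on total counts, with no low-count filter, with DESeq2 and with the replicate block. They numbered 0 to 2 with 1 library left out. The share at that p was 6.65% of 29966 genes with DESeq2, run without the low-count filter. It is not given for the other settings, so those counts have no background beside them. Members without overlap numbered 16 within the 4 libraries, or 50%, against 62.1% of all genes. With 1 library left out they numbered 8 to 14. There were 14 without Cdo1AKO 2 (43.8%, against 54.7% of all genes) and 12 without Cdo1AKO 3 (37.5%, against 24.0%). For the other libraries left out the share of all genes is not given. Within the 4 libraries, where 15.3% of all genes were called, 2 of the 13 RNA polymerase II genes and 2 of the 26 elongation factors were. Of the 25 nuclear receptors and coactivators, 3 were called with DESeq2, 4 with the lymph node term and 9 within the 4 libraries. DESeq2 called 1.55% of 17728 genes and the fit with the term 4.13% of 16623. Of the 10 corepressors, 1 was called with the term and 1 within the 4 libraries.

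On total counts the median log2 fold change was 0.096 for all members, 0.076 for the head, 0.14 for general transcription factors, 0.058 for elongation factors, -0.21 for nuclear receptors and 0.0080 for corepressors. Within the 4 libraries it was -0.038 for all members, -0.067 for the head, -0.038 for the middle, 0.041 for general transcription factors and -0.22 for nuclear receptors. It was -0.0082 for all members with limma-voom and -0.0018 with the lymph node term, 0.045 for general transcription factors with limma-voom and 0.051 with the replicate block, and 0.055 for the head with Med27 to Med30.

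With 1 library left out, the median log2 fold change ran from -0.010 to 0.065 for all members, from -0.068 to 0.071 for the head, from 0.012 to 0.15 for the middle, from 0.030 to 0.063 for general transcription factors, from -0.11 to 0.079 for elongation factors from -0.087 to -0.022 for corepressors, from -0.22 to 0.030 for RNA polymerase II, from -0.18 to 0.0063 for cohesin, from -0.22 to -0.085 for the kinase module, from 0.091 to 0.21 for the tail and from -0.045 to 0.25 for Med27 to Med30. Members whose sign turned ran from -0.15 to 0.080 (Med6), -0.068 to 0.13 (Med8), -0.17 to 0.11 (Med18), -0.15 to 0.071 (Med22), -0.23 to 0.067 (Med1), -0.32 to 0.17 (Med9), -0.023 to 0.33 (Med21), -0.16 to 0.050 (Med31), -0.25 to 0.091 (Med14), -0.054 to 0.15 (Med23), -0.093 to 0.0086 (Med28), -0.27 to 0.25 (Med29), -0.22 to 0.23 (Med12) and -0.085 to 0.21 (Ccnc). The log2 ratio of Med12 to Med12l differed between the groups by 0.10 to 0.74 and that of Cdk8 to Cdk19 by -0.54 to -0.28. The log2 ratio of Med13 to Med13l differed between the groups by -0.21 to 0.021, and was above 0 without control 2 and without Cdo1AKO 2.

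Signs turned on total counts for Med6 (0.036), Med18 (0.076), Med22 (0.044), Med9 (0.039), Med31 (0.0029), Med14 (0.017), Med28 (0.031) and Med12 (0.082), and with RLE factors for Med9 (0.0015). They turned within the 4 libraries for Med8 (-0.067), Med18 (0.25), Med19 (-0.027), Med14 (0.028), Med29 (-0.24), Med12 (0.11) and Ccnc (-0.11).

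Control and Cdo1AKO samples of the same number were treated as unpaired. Their deviations from the group means correlated at -0.66, -0.66 and 0.42, and no control correlated best with its own number. Control 1 correlated best with Cdo1AKO 2 (0.70), and these are the 2 libraries without lymph node transcripts. With 3 libraries per group, these values cannot decide whether the samples were paired. With the replicate block 0 members and 0 of all genes were called.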
